A study of Mus musculus with 16 samples.

Results

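The insulin-like growth factor (IGF) genes described here are Igf1, the receptor genes Igf1r and Igf2r, and the binding protein genes Igfbp2, Igfbp3, Igfbp4, Igfbp5 and Igfbp7. They were chosen by name, with earlier results of these data known, and are 8 of the 56748 genes in the deposited table. Total RNA was sequenced from mid-gestation mouse embryos (E11.5). The 4 groups were the trunk region of Ednrb-/- embryos, the trunk region of WT embryos, the caudal region of Ednrb-/- embryos and the caudal region of WT embryos, with 4 libraries each and 16 in all. WT embryos are Ednrb+/+, and Ednrb-/- embryos carry a mutation of the endothelin B receptor gene on both copies. The strain, the allele's construction, the sex of the embryos and how many embryos went into a library were not stated in the labels. The libraries are labelled as biological replicates, and no label ties a trunk library to a caudal library of the same embryo. Both regions are mixtures of many cell types, so fewer cells of a type and less RNA per cell cannot be told apart. The series asks what the tissue around pigment cells contributes to the position of coat spots when this receptor is missing.

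IGF1 and IGF2 are secreted growth factors that act through IGF1R, a tyrosine kinase receptor that signals through PI3 kinase and AKT to promote growth and survival. IGF2R, also the cation-independent mannose 6-phosphate receptor, takes IGF2 into the cell for breakdown. The IGF binding proteins hold IGF1 and IGF2 outside cells, where proteases release them. IGF signalling is needed for normal size of the mouse embryo, and mesenchyme makes much of the ligand.

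Values are FPKM, that is, fragments divided by gene length in kilobases and scaled to the size of the library, so levels of different genes can be set side by side. Differences are on the log2(FPKM + 0.5) scale, with a standard error (SE) and an adjusted p from limma with Benjamini-Hochberg adjustment over all 17205 genes tested, and a gene was called at an adjusted p under 0.05. All 8 genes passed the filter of 0.5 FPKM in 4 libraries. Whole reads in listed genes ranged from 34883821 to 43444905 per library. The 8 genes had between 1652 reads in the lowest library of Igfbp3 and 59934 reads in the highest library of Igfbp5, except Igfbp7, with 30 to 170 reads. Ednrb itself was at 3.98 ± 0.596 FPKM in Ednrb-/- trunk libraries and 38.7 ± 2.79 FPKM in WT trunk libraries, and at 2.34 ± 0.847 FPKM in Ednrb-/- caudal libraries and 30.6 ± 3.17 FPKM in WT caudal libraries (SD, n = 4 each). All 12 Hox genes of paralog groups 10 to 13 were lower in trunk than in caudal libraries of both genotypes, with summed levels of 10.9 to 52.2 FPKM in trunk libraries and 253 to 330.2 FPKM in caudal libraries. In 3 libraries Xist and Ddx3y were both at 5 FPKM or more (Ednrb-/- trunk replicate 3, Ednrb-/- caudal replicate 3 and WT caudal replicate 2). Xist exceeded Ddx3y in 1 Ednrb-/- trunk, 2 WT trunk and 1 WT caudal library and in 0 Ednrb-/- caudal libraries. Calls of the 8 genes that change without the 3 mixed libraries are given with that value.

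The promoters of 4 of the 8 genes are shown, as RefSeq sequence of build GRCm38.p6, from 250 bases before to 50 bases after the annotated start. Igf1, Igfbp5 and Igfbp3 are the genes that were higher in the trunk in both genotypes, and Igfbp4 is set beside them as a gene that was not. Capitals mark letters like a TATA box, which were TATTTA in Igfbp5, the letters TATATA in Igfbp3 and the letters TATAAA in Igfbp4. These were chosen after the promoters were seen and searched on both strands, where the 3 motifs may overlap each other. The Igf1 promoter lies at chr10:87860861-87861160 on the plus strand, that of Igfbp5 at chr1:72874816-72875115 on the minus strand, that of Igfbp3 at chr11:7213874-7214173 on the minus strand and that of Igfbp4 at chr11:99040994-99041293 on the plus strand.
Igf1: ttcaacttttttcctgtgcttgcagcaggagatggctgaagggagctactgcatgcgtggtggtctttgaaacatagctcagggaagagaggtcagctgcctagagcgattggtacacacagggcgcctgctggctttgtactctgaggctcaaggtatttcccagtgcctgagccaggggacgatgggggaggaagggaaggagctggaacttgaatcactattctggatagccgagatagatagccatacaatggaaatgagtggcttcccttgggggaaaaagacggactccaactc
Igfbp5: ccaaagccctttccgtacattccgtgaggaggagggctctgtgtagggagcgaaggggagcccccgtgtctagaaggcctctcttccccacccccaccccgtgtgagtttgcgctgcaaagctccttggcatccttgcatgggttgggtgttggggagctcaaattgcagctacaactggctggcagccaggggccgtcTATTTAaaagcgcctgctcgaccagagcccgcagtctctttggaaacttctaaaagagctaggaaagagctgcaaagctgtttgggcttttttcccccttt
Igfbp3: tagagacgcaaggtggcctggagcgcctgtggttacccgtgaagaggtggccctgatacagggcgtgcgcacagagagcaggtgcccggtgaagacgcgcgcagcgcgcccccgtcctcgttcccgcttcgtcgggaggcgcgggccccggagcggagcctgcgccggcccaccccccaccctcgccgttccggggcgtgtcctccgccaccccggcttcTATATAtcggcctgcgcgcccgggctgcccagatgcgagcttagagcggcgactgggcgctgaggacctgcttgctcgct
Igfbp4: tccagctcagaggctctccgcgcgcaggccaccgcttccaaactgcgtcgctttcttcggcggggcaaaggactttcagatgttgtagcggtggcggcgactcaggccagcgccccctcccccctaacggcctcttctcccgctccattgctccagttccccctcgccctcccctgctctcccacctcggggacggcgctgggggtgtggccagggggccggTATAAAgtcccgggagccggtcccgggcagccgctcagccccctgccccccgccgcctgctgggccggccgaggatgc
Igf1 is transcribed from more than 1 leader exon, and the table holds 1 of its starts. The Igf1 window had 6 CpG and none of these letters. The Igfbp5 window had 10 CpG and TATTTA beginning 51 bases before the start. The Igfbp3 window had 37 CpG and TATATA beginning 30 bases before the start, and the Igfbp4 window had 27 CpG and TATAAA beginning 28 bases before it. Of 32851 mouse promoters of the same length, 13.7% held TATTTA, 5.67% held TATATA and 13.6% held TATAAA, and the median number of CpG was 7. The 3 genes that shared the trunk pattern thus did not share these letters or a CpG count.

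Between the genotypes, Igfbp5 was called in both regions and always lower in Ednrb-/- libraries. In the trunk it was the only one of the 8 genes called, 1 lower of 8, where 25.1% of all genes tested were called (12.2% higher and 13.0% lower). In the caudal region 5 of 8 were called, beside 41.6% of all genes: Igf2r and Igfbp4 higher (21.7% of all genes), and Igf1r, Igfbp5 and Igfbp7 lower (19.9% of all genes). With only 8 genes, the caudal share is no result about them as a group. The median difference of the 8 genes was -0.10 in the trunk, beside 0.004 for all genes, and -0.02 in the caudal region, beside 0.0068 for all genes.

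Between the regions, Igf1, Igfbp3 and Igfbp5 were higher in the trunk than in the caudal region in both genotypes. In Ednrb-/- embryos 7 of 8 genes were called, beside 36.2% of all genes (17.3% higher and 18.9% lower). These were Igf1, Igfbp3, Igfbp5 and Igfbp7, higher in the trunk, and Igf2r, Igfbp2 and Igfbp4, lower there. In WT embryos 4 of 8 were called, beside 18.0% of all genes: the 3 above higher (9.69% of all genes), and Igf1r lower (8.35% of all genes), in the trunk. The median difference of the 8 genes between trunk and caudal region was 0.28 in Ednrb-/- embryos, beside -0.0122 for all genes, and 0.17 in WT embryos, beside 0.0023 for all genes. The 8 genes were chosen with earlier results of these data known. These shares and medians are thus no result about them as a group. The comparisons share libraries, since each group enters both a genotype and a region comparison, so they are not independent.

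How the calls over all genes split into higher and lower depended on the scaling. In the caudal genotype comparison 52.1% of calls were higher with the deposited FPKM, 30.7% in TPM and 37.0% when voom was applied to the whole reads. In the trunk genotype comparison these shares were 48.4% and, with voom, 36.8%. Between regions in Ednrb-/- embryos they were 47.8% and, in TPM, 66.9%. For the interaction, the difference between the genotype effects, they were 55.9%, 79.1% in TPM and 72.6% with voom.

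**Figure D1:**
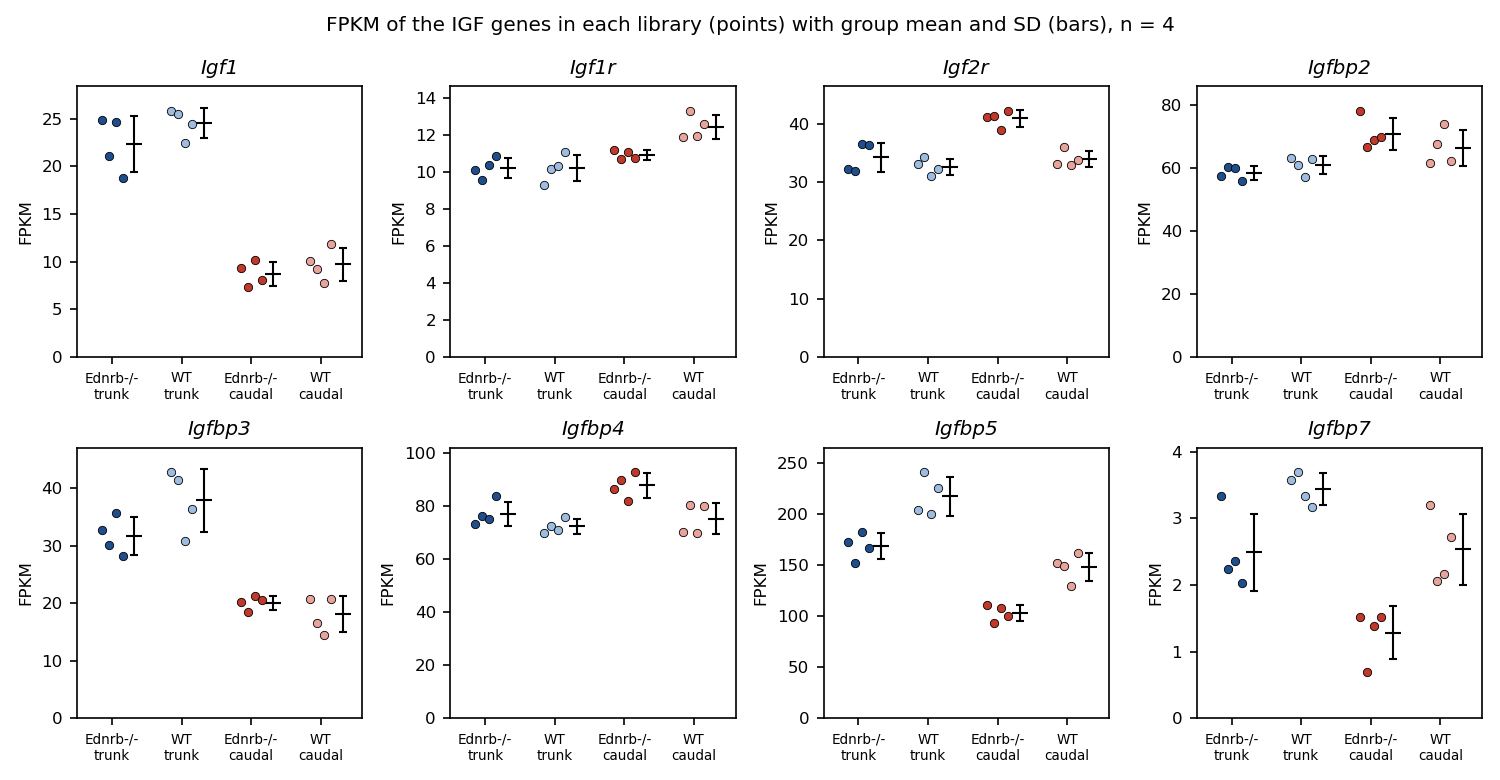
FPKM of the 8 genes by group, with 1 point per library and a bar for the group mean and SD (n = 4). Igf1 trunk libraries lie between 18.8 and 25.9 FPKM, all above the caudal libraries of 7.32 to 11.8 FPKM, and Igfbp5 is lower in Ednrb-/- than in WT libraries of the same region.

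Igf1 encodes the ligand and lies at chr10:87694127-87772904, plus strand (ENSMUSG00000020053, mm39, protein-coding). It was at 24.9, 21.1, 24.6 and 18.8 FPKM in Ednrb-/- trunk replicates 1 to 4 and at 25.9, 25.5, 22.4 and 24.5 FPKM in the WT trunk replicates. It was at 9.35, 7.32, 10.1 and 8.04 FPKM in Ednrb-/- caudal replicates and at 10.03, 9.19, 7.76 and 11.8 FPKM in WT caudal replicates. Every trunk library was above every caudal library, and the genotypes overlapped within each region. The level was higher in the trunk by 1.31 ± 0.12 (log2, SE; adjusted p = 2.1e-06) in Ednrb-/- embryos and by 1.31 ± 0.12 (adjusted p = 4.1e-06) in WT embryos. No genotype difference was called in the trunk (-0.14, 95% interval -0.40 to 0.12, adjusted p = 0.44) or the caudal region (-0.14, 95% interval -0.40 to 0.11, adjusted p = 0.37). The difference between the 2 genotype effects was 0.00, with a 95% interval of -0.36 to 0.37. The opposite-strand gene Igf1os, whose span overlaps the start of Igf1, was at 0 to 0.132 FPKM.

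Igf2 encodes the other ligand, an imprinted gene expressed from the paternal copy, and is not one of the 8 genes. It averaged 29.0 ± 2.45 FPKM in Ednrb-/- trunk libraries and 36.1 ± 1.32 FPKM in WT trunk libraries (SD, n = 4 each), and these ranges did not overlap. It averaged 21.6 ± 1.04 FPKM in Ednrb-/- caudal libraries and 23.3 ± 3.67 FPKM in WT caudal libraries, which overlapped. It was lower in Ednrb-/- than in WT trunk libraries (-0.32 ± 0.09, adjusted p = 0.014), with an adjusted p of 0.41 in the caudal region. It was higher in the trunk of Ednrb-/- embryos by 0.41 (adjusted p = 0.0017) and of WT embryos by 0.64 (adjusted p = 0.00013). Igf2 shares its span with Mir483, Igf2os and Gm49394, so its level depends on how reads were assigned. Gm49394 covers most of Igf2 on the same strand and was at 0 FPKM in every library. How reads common to both were counted was not stated, so Igf2 may be undercounted, which was not tested.

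Igf1r encodes the signalling receptor and lies at chr7:67602575-67883416, plus strand (ENSMUSG00000005533). It was at 10.1, 9.57, 10.4 and 10.9 FPKM in Ednrb-/- trunk replicates and at 9.31, 10.2, 10.3 and 11.1 FPKM in WT trunk replicates. It was at 11.2, 10.7, 11.1 and 10.7 FPKM in Ednrb-/- caudal replicates and at 11.9, 13.3, 11.9 and 12.6 FPKM in WT caudal replicates. The 4 WT caudal libraries were above all the other 12. Igf1r was lower in Ednrb-/- than in WT caudal libraries by -0.18 ± 0.05 (adjusted p = 0.012), a call lost without the 3 mixed libraries (-0.15, adjusted p = 0.072). It was lower in the trunk than in the caudal region in WT embryos (-0.27 ± 0.05, adjusted p = 0.0022), against -0.09 in Ednrb-/- embryos (adjusted p = 0.19). In the trunk the genotype difference was 0.00, with a 95% interval of -0.11 to 0.12 (adjusted p = 0.96).

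Igf2r encodes the receptor that clears IGF2 and lies at chr17:12901293-12988551, minus strand (ENSMUSG00000023830). In the mouse it is imprinted and expressed from the maternal copy, with the antisense RNA Airn overlapping it. It was at 32.3, 31.9, 36.6 and 36.4 FPKM in Ednrb-/- trunk replicates and at 33.1, 34.3, 31.1 and 32.3 FPKM in WT trunk replicates. It was at 41.3, 41.4, 38.9 and 42.3 FPKM in Ednrb-/- caudal replicates and at 33.1, 36.0, 32.9 and 33.8 FPKM in WT caudal replicates. The 4 Ednrb-/- caudal libraries were above all the other 12. Igf2r was higher in Ednrb-/- than in WT caudal libraries by 0.27 ± 0.05 (adjusted p = 0.00057), and this call was lost with quantile normalization (0.13, adjusted p = 0.058). It was lower in the trunk than in the caudal region in Ednrb-/- embryos (-0.26 ± 0.05, adjusted p = 0.0011), against -0.06 in WT embryos (adjusted p = 0.49). In the trunk its genotype difference was 0.07 (adjusted p = 0.36). Airn was at 3.25 to 4.48 FPKM in all libraries. Where its span overlaps that of Igf2r, from 12960198 to 12988551, its reads cannot be told from those of Igf2r without strand.

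Igfbp5, which binds IGFs and also extracellular matrix, lies at chr1:72897091-72914043, minus strand (ENSMUSG00000026185). It was at 173, 152, 182 and 167 FPKM in Ednrb-/- trunk replicates and at 204, 241, 200 and 225 FPKM in WT trunk replicates. It was at 111, 93.1, 108 and 100.1 FPKM in Ednrb-/- caudal replicates and at 152, 149.5, 129 and 162 FPKM in WT caudal replicates. Ednrb-/- and WT libraries did not overlap in either region, and trunk and caudal libraries did not overlap in either genotype. It was lower in Ednrb-/- trunk by -0.37 ± 0.08 (adjusted p = 0.0038) and in Ednrb-/- caudal by -0.52 ± 0.08 (adjusted p = 0.00012). These 2 genotype effects differed by 0.15, with a 95% interval of -0.09 to 0.39 (adjusted p = 0.45). It was higher in the trunk by 0.71 ± 0.08 in Ednrb-/- embryos (adjusted p = 1.3e-05) and by 0.55 ± 0.08 in WT embryos (adjusted p = 0.00023). The difference between genotypes and between regions was called under each alternative tried, with values of -0.42 to -0.32 in the trunk and -0.70 to -0.47 in the caudal region.

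Most markers of loose mesenchyme were called in the same directions as Igfbp5. Of 8 tested of 9 (Pdgfra, Col1a1, Col1a2, Col3a1, Col6a1, Col6a3, Lum, Dcn and Dpt), 7 were lower in Ednrb-/- trunk, 7 were lower in Ednrb-/- caudal, and 7 were higher in the trunk in each genotype. Their summed level was 182 to 212 FPKM in Ednrb-/- trunk libraries and 281 to 350.2 FPKM in WT trunk libraries, and 109 to 145 FPKM in Ednrb-/- caudal libraries and 162 to 233 FPKM in WT caudal libraries. The mean sums were 193 FPKM in Ednrb-/- trunk and 197 FPKM in WT caudal libraries, where Igfbp5 averaged 169 and 148 FPKM. Macrophage markers were also lower in Ednrb-/- libraries, 7 of 10 in the trunk and 10 of 10 in the caudal region, with 17.9 to 23.5 FPKM in Ednrb-/- trunk and 25.3 to 34.5 FPKM in WT trunk libraries. In the caudal region they summed to 18.0 to 23.8 FPKM in Ednrb-/- and 30.9 to 39.1 FPKM in WT libraries. Of 8 tested of 9 skeletal muscle markers, 2 were higher and 6 lower in Ednrb-/- trunk libraries, and 0 were higher and 6 lower in Ednrb-/- caudal libraries. In the trunk 8 were higher than in the caudal region in Ednrb-/- embryos, and 6 were higher and 2 lower in WT embryos. They summed to 277 to 299 FPKM in Ednrb-/- trunk, 382 to 482 FPKM in WT trunk, 91.6 to 123 FPKM in Ednrb-/- caudal and 219 to 238 FPKM in WT caudal libraries. Sclerotome and cartilage markers were lower for 2 of 7 genes in Ednrb-/- trunk and 7 of 7 in Ednrb-/- caudal libraries. They summed to 94.7 to 97.3 FPKM in Ednrb-/- trunk and 82.4 to 116 FPKM in WT trunk libraries, and to 77.3 to 87.8 FPKM in Ednrb-/- caudal and 117 to 126 FPKM in WT caudal libraries. Of 7 neuron markers, 1 was higher and 0 lower in Ednrb-/- trunk libraries, and 1 was higher and 6 lower in Ednrb-/- caudal libraries. Neuron sums averaged 458 FPKM in Ednrb-/- trunk, 487 FPKM in WT trunk, 224 FPKM in Ednrb-/- caudal and 447 FPKM in WT caudal libraries. Over all genes tested, 12.2% were higher and 13.0% lower in Ednrb-/- trunk libraries. In Ednrb-/- caudal libraries 21.7% were higher and 19.9% lower. Between regions 17.3% were higher in the trunk in Ednrb-/- embryos and 9.69% in WT embryos. The part of these cell types in the Igfbp5 result was not tested.

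Igfbp3, the main IGF carrier of adult blood, lies at chr11:7156086-7163923, minus strand (ENSMUSG00000020427). It was at 32.8, 30.1, 35.7 and 28.2 FPKM in Ednrb-/- trunk replicates and at 42.8, 41.5, 30.9 and 36.4 FPKM in WT trunk replicates. It was at 20.2, 18.4, 21.2 and 20.5 FPKM in Ednrb-/- caudal replicates and at 20.8, 16.5, 14.4 and 20.8 FPKM in WT caudal replicates. All trunk libraries were above all caudal libraries, and the genotypes overlapped in both regions. It was higher in the trunk by 0.64 ± 0.12 in Ednrb-/- embryos (adjusted p = 0.00072) and by 1.05 ± 0.12 in WT embryos (adjusted p = 2.7e-05). The genotype difference was -0.25 ± 0.12 in the trunk (adjusted p = 0.14) and 0.16 ± 0.12 in the caudal region (adjusted p = 0.31). Without WT trunk replicate 3, the lowest of its group, the trunk difference was -0.34 (adjusted p = 0.048).

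Igfbp4, a target of the protease PAPP-A, lies at chr11:98932070-98945218, plus strand (ENSMUSG00000017493). It was at 73.3, 76.4, 75.2 and 83.7 FPKM in Ednrb-/- trunk replicates and at 69.8, 72.7, 71.0 and 76.1 FPKM in WT trunk replicates. It was at 86.5, 90.1, 82.2 and 92.9 FPKM in Ednrb-/- caudal replicates and at 70.5, 80.5, 69.8 and 80.1 FPKM in WT caudal replicates. Ednrb-/- and WT libraries overlapped in the trunk and not in the caudal region, where the nearest values were 82.2 FPKM in an Ednrb-/- library and 80.5 FPKM in a WT library. It was higher in Ednrb-/- caudal libraries by 0.23 ± 0.06 (adjusted p = 0.0048), a call lost in TPM (0.12, adjusted p = 0.09) and with quantile normalization (0.07, adjusted p = 0.36). Between trunk and caudal region the difference was -0.19 ± 0.06 in Ednrb-/- embryos (adjusted p = 0.017) and -0.05 in WT embryos (adjusted p = 0.58). The call in Ednrb-/- embryos was lost in TPM (-0.11, adjusted p = 0.13), with quantile normalization (-0.07, adjusted p = 0.35), without caudal replicate 4 (adjusted p = 0.059) or without trunk replicate 1 (adjusted p = 0.057). In the trunk its genotype difference was 0.09 (adjusted p = 0.27).

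Igfbp2, whose protein binds integrins as well as IGFs, lies at chr1:72863662-72891633, plus strand (ENSMUSG00000039323), with 5457 bases between its end and that of Igfbp5. It was at 57.5, 60.4, 59.9 and 55.7 FPKM in Ednrb-/- trunk replicates and at 63.2, 60.8, 57.0 and 63.0 FPKM in WT trunk replicates. It was at 78.2, 66.7, 68.7 and 69.9 FPKM in Ednrb-/- caudal replicates and at 61.5, 67.4, 74.1 and 62.3 FPKM in WT caudal replicates. The genotypes overlapped in both regions, unlike those of its neighbour Igfbp5. No genotype difference was called (-0.06, adjusted p = 0.49 in the trunk and 0.10, adjusted p = 0.22 in the caudal region), and the caudal one was 0.15 (adjusted p = 0.043) without WT caudal replicate 3. In Ednrb-/- embryos it was lower in the trunk than in the caudal region by -0.28 ± 0.06 (adjusted p = 0.0024), and in WT embryos the difference was -0.12 (adjusted p = 0.2).

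Igfbp7, a low-affinity IGF binder found around blood vessels, lies at chr5:77497087-77555888, minus strand (ENSMUSG00000036256). It was at 3.33, 2.24, 2.35 and 2.03 FPKM in Ednrb-/- trunk replicates and at 3.57, 3.69, 3.33 and 3.17 FPKM in WT trunk replicates. It was at 1.53, 0.702, 1.39 and 1.52 FPKM in Ednrb-/- caudal replicates and at 3.21, 2.06, 2.17 and 2.72 FPKM in WT caudal replicates. The genotypes did not overlap in the caudal region and overlapped in the trunk through Ednrb-/- trunk replicate 1. It was lower in Ednrb-/- caudal libraries by -0.78 ± 0.17 (adjusted p = 0.0017), and in the trunk the difference was -0.42 ± 0.17 (adjusted p = 0.084). Without Ednrb-/- trunk replicate 1 the trunk difference was -0.54 (adjusted p = 0.032). It was higher in the trunk than in the caudal region by 0.76 ± 0.17 in Ednrb-/- embryos (adjusted p = 0.0027), and in WT embryos the difference was 0.39 ± 0.17 (adjusted p = 0.13). Of 9 endothelial markers, 3 were higher and 0 lower in Ednrb-/- trunk libraries, and 7 were higher and 0 lower in Ednrb-/- caudal libraries. Over all genes 12.2% were higher in the trunk and 21.7% in the caudal region. The endothelial markers summed to 80.7 to 84.8 FPKM in Ednrb-/- trunk and 71.1 to 81.6 FPKM in WT trunk libraries, and to 104 to 109 FPKM in Ednrb-/- caudal and 85.8 to 89.3 FPKM in WT caudal libraries. The part of endothelial cells in the Igfbp7 result was not tested. Polr2b, on the opposite strand at 39.4 to 51.3 FPKM, overlaps only the end of Igfbp7, from 77497087 to 77497171. Igfbp7 reads in that stretch could not be assigned with certainty.

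**Figure D2:**
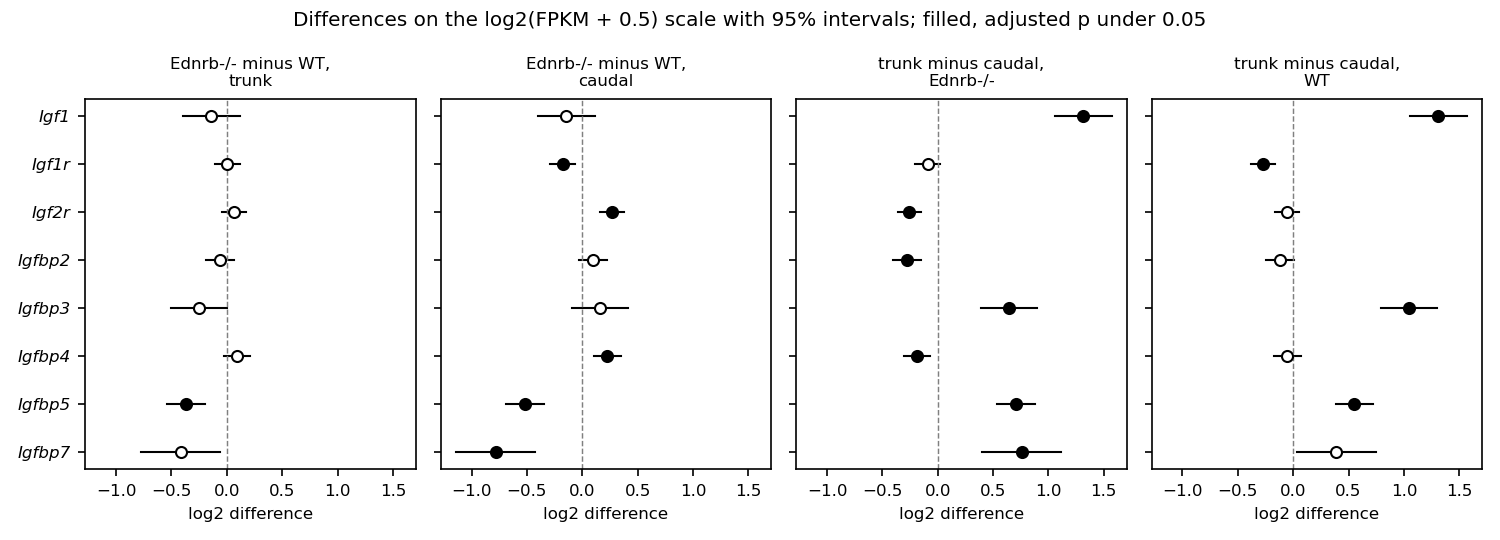
Differences of the 8 genes on the log2(FPKM + 0.5) scale, with a point for the estimate and a line for its 95% interval, and filled points called at an adjusted p under 0.05. Igf1 lies at 1.31 in both region panels and has open points in both genotype panels, and Igfbp5 is filled in all 4 panels.

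None of the 8 genes was called for a genotype effect that differed between trunk and caudal region, where 6.76% of all genes were called (3.78% higher and 2.98% lower). At an unadjusted limma p under 0.05 there were 3: Igf1r (0.18, adjusted p = 0.15), Igf2r (-0.20, adjusted p = 0.097) and Igfbp3 (-0.41, adjusted p = 0.15). Igf2r was called without the 3 mixed libraries (-0.28, adjusted p = 0.036), and with voom on the whole reads 0 of the 8 were called. The calls of Igf1r, Igf2r, Igfbp4 and Igfbp7 in the caudal region and not in the trunk do not by themselves show that their genotype effects differ between the regions.

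The order of the levels was nearly fixed. Igfbp5, Igfbp4 and Igfbp2 were the 3 highest in every group, in that order, and Igfbp7 was the lowest. In the caudal groups Igf2r, Igfbp3, Igf1r and Igf1 came next, in that order. In the trunk groups Igf1 was above Igf1r, at 22.4 FPKM against 10.2 FPKM in Ednrb-/- trunk libraries and 24.6 FPKM against 10.2 FPKM in WT trunk libraries. Igf2r and Igfbp3 overlapped in both trunk groups, and Igfbp4 and Igfbp2 overlapped in WT caudal libraries. All other neighbours in the order had ranges that did not overlap.

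The 5 binding protein genes made up 338 ± 14.0 FPKM in Ednrb-/- trunk, 392.3 ± 25.0 FPKM in WT trunk, 283 ± 11.7 FPKM in Ednrb-/- caudal and 310.4 ± 16.1 FPKM in WT caudal libraries (SD, n = 4 each). Igfbp5 was 49.8% ± 1.76 of that sum in Ednrb-/- trunk and 55.4% ± 1.73 in WT trunk libraries, and 36.4% ± 1.81 in Ednrb-/- caudal and 47.7% ± 2.26 in WT caudal libraries. The ranges of this share did not overlap between genotypes in either region. Igfbp4 held 22.9% in Ednrb-/- trunk, 18.5% in WT trunk, 31.1% in Ednrb-/- caudal and 24.2% in WT caudal libraries. Igfbp2 held 17.3% in Ednrb-/- trunk, 15.6% in WT trunk, 25.0% in Ednrb-/- caudal and 21.5% in WT caudal libraries. Igfbp7 held at most 1.04% in any library.

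**Figure D3:**
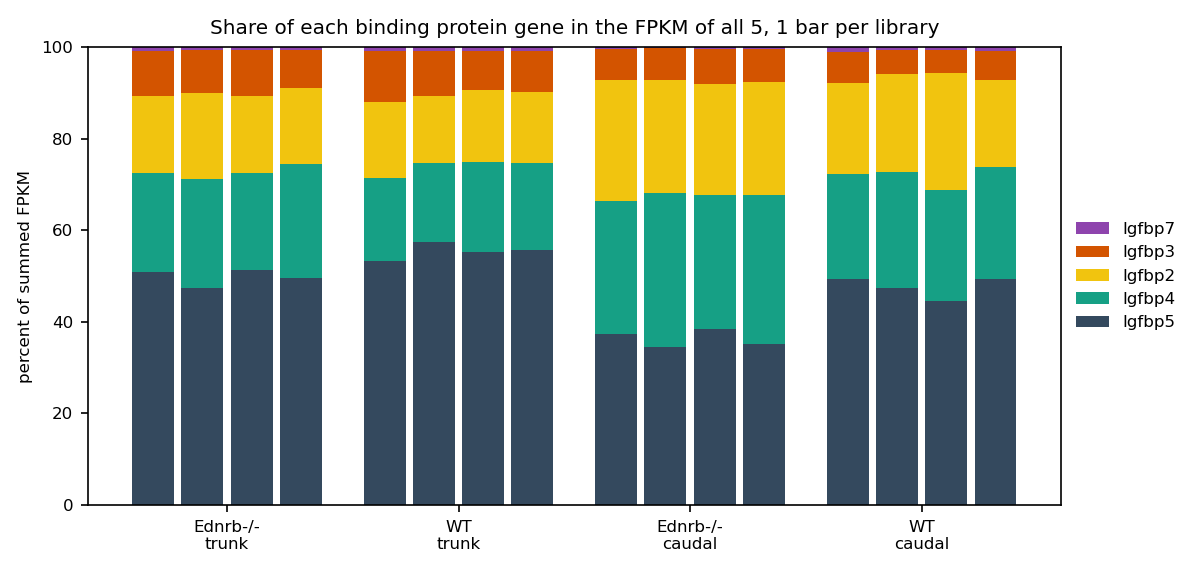
Share of each binding protein gene in the summed FPKM of the 5 genes, as stacked bars with 1 bar per library. Igfbp5 takes 34.6% to 38.5% in Ednrb-/- caudal libraries, against 44.6% to 49.4% in WT caudal libraries.

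For the 4 genes whose group means spanned at least 0.5 on the log2 scale, the nearest genes were found by the root mean square difference of centred log2 profiles over the 16 libraries, among protein-coding genes tested. For Igf1 these were Ccn4 (0.20), a matricellular protein gene induced by Wnt signalling, Hoxa7 (0.21), a Hox gene, and Sim1 (0.22), a transcription factor gene. The SD of the Igf1 profile itself was 0.68. Ccn4 was at 5.18 FPKM in Ednrb-/- trunk, 7.85 FPKM in WT trunk, 1.85 FPKM in Ednrb-/- caudal and 2.81 FPKM in WT caudal libraries. Hoxa7 was at 23.9 FPKM in Ednrb-/- trunk, 25.4 FPKM in WT trunk, 9.66 FPKM in Ednrb-/- caudal and 11.3 FPKM in WT caudal libraries. For Igfbp5 (profile SD 0.40) they were Marveld1 (0.07), Axl (0.08), a receptor tyrosine kinase gene, and Fbn1 (0.08), which encodes the microfibril protein fibrillin-1. Axl was at 14.6 FPKM in Ednrb-/- trunk, 19.96 FPKM in WT trunk, 8.61 FPKM in Ednrb-/- caudal and 12.5 FPKM in WT caudal libraries. For Igfbp3 (profile SD 0.46) they were Adamts18 (0.18), Gabra4 (0.18) and Mmp2 (0.19), a matrix metalloproteinase gene. Group means were 0.74 to 1.92 FPKM for Adamts18 and 0.597 to 1.27 FPKM for Gabra4. At such levels the added 0.5 FPKM narrows the profile. For Igfbp7 (profile SD 0.48) the nearest were Gria4 (0.16), a glutamate receptor subunit gene, Mme (0.16) and Pkia (0.16). Igfbp5 had nearer profiles than the other 3 genes, relative to its own spread.

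**Figure D4:**
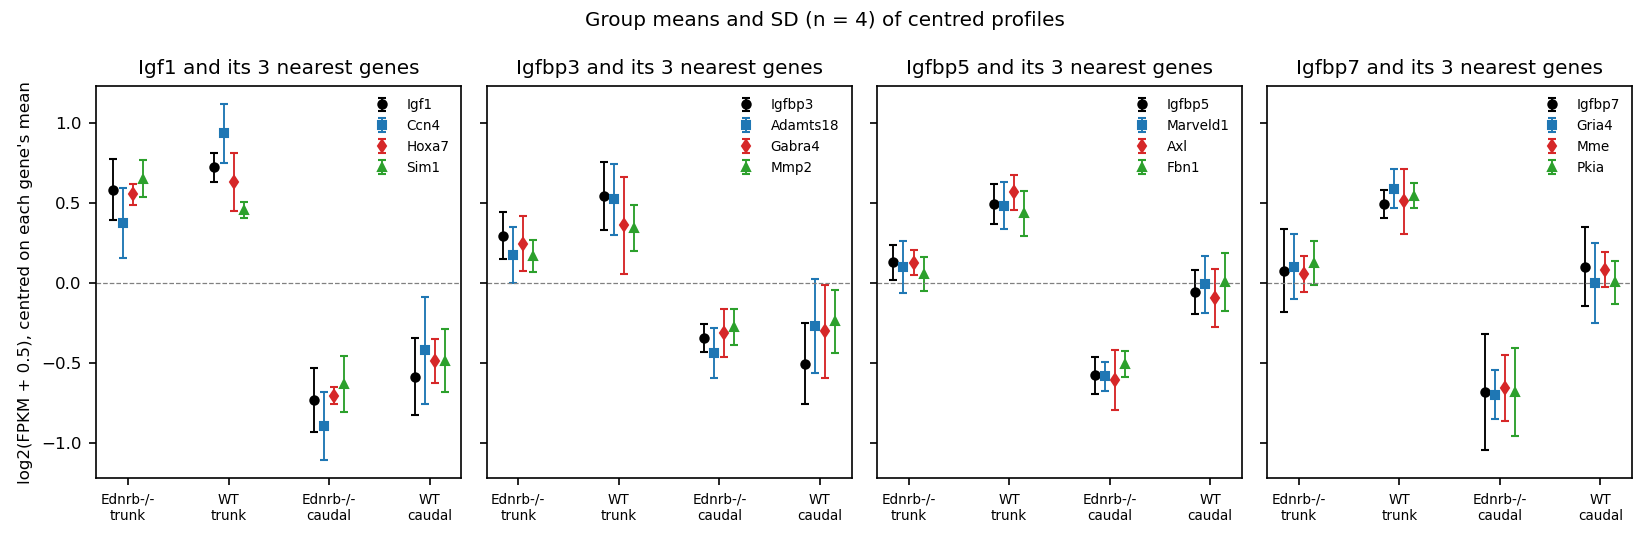
Group means and SD (n = 4) of log2(FPKM + 0.5), centred on each gene's own mean, for Igf1, Igfbp3, Igfbp5 and Igfbp7 and their 3 nearest genes. The Igfbp5 panel shows all 4 genes highest in WT trunk and lowest in Ednrb-/- caudal libraries.

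The wider pathway was read from 43 other genes, of which 38 were tested. In the trunk 4 were higher and 9 lower in Ednrb-/- libraries, and in the caudal region 9 were higher and 9 lower. These 13 and 18 of 38 stand beside 25.1% and 41.6% of all genes. The 9 lower in the trunk include Insrr, which passed the filter only through the WT trunk libraries, where it was high. The lists were chosen with earlier results of these data known, so these counts are no result about the pathway as a group. The median difference of the 38 genes was -0.02 in the trunk and -0.05 in the caudal region. Between trunk and caudal region 6 were higher and 5 lower in Ednrb-/- embryos, and 4 higher and 6 lower in WT embryos, beside 36.2% and 18.0% of all genes. Insrr is also among the 4 higher in WT embryos. Over 21 alternatives for each comparison, the trunk genotype counts were 4 to 7 higher and 4 to 13 lower, and the caudal ones 4 to 9 higher and 7 to 17 lower. The trunk count of lower genes was 4 without Ednrb-/- trunk replicate 2, WT trunk replicate 2 or WT trunk replicate 4, and 5 without Ednrb-/- trunk replicate 4 or with no filter. The caudal counts were 4 higher and 17 lower in TPM. The counts between regions were 5 to 13 higher and 2 to 6 lower in Ednrb-/- embryos, with 13 higher and 2 lower in TPM, 10 higher with voom, 2 lower without Ednrb-/- caudal replicate 2 or the 3 mixed libraries, and 3 lower without Ednrb-/- trunk replicate 2, with no filter, with a sex term or with only the groups compared. In WT embryos they were 2 to 6 higher and 5 to 8 lower, with 2 higher under the filter at 1 FPKM. Without the 3 mixed libraries 5 were higher and 6 lower in the trunk, and 7 were higher and 7 lower in the caudal region.

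Among ligands and binding proteins outside the 8 genes, 2 of 7 were tested. Both were lower in Ednrb-/- trunk libraries, and 1 was lower in Ednrb-/- caudal libraries, beside 13.0% and 19.9% of all genes. The trunk count holds Igf2, whose level depends on how reads were assigned. Igfbpl1, an IGFBP-like protein gene of developing neurons, averaged 17.9 ± 0.999 FPKM in Ednrb-/- trunk and 23.7 ± 2.68 FPKM in WT trunk libraries (SD, n = 4 each). It averaged 8.02 ± 1.63 FPKM in Ednrb-/- caudal and 18.4 ± 2.84 FPKM in WT caudal libraries. The differences were -0.39 ± 0.13 (adjusted p = 0.034) in the trunk and -1.16 ± 0.13 (adjusted p = 9.3e-06) in the caudal region, and the trunk call was lost with no filter (adjusted p = 0.074) and without replicate 2, 3 or 4 of Ednrb-/- trunk or of WT trunk (adjusted p up to 0.093). Of 7 neuron markers, 1 was higher and 6 lower in Ednrb-/- caudal libraries, beside 21.7% and 19.9% of all genes. They summed to 168 to 294 FPKM in Ednrb-/- and 381 to 504 FPKM in WT caudal libraries. In the trunk 1 was higher and 0 lower. Sums there were 437 to 495 FPKM in Ednrb-/- and 429 to 553 FPKM in WT libraries. The part of neurons in the Igfbpl1 result was not tested. Igfbp1, Igfbp6, Igfals and Ins2 were under the filter, and Ins1 was listed at 0 in every library. Igfbp1 was at 0.0984 ± 0.0336 FPKM in Ednrb-/- trunk and 0.435 ± 0.154 FPKM in WT trunk libraries, with a two-sided exact permutation p of 0.0286, the smallest that 70 assignments allow (0.2 after adjustment over 14 such tests). With no filter, limma called Igfbp1 lower in Ednrb-/- than in WT trunk libraries. That fit also called it higher in WT trunk than in WT caudal libraries. Markers of hepatoblasts, the liver cells in which Igfbp1 is high, summed to 0.426 to 3.10 FPKM over all 16 libraries.

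Among 5 proteases and stanniocalcins, 1 was lower and 0 higher in Ednrb-/- trunk libraries, and 2 were lower and 2 higher in Ednrb-/- caudal libraries. These 1 and 4 of 5 stand beside 25.1% and 41.6% of all genes. Htra1, a secreted serine protease that cleaves IGF binding proteins, was at 0.953 ± 0.0868 FPKM in Ednrb-/- trunk and 2.17 ± 0.395 FPKM in WT trunk libraries, and at 0.808 ± 0.0929 FPKM in Ednrb-/- caudal and 1.51 ± 0.111 FPKM in WT caudal libraries (SD, n = 4 each). Its differences were -0.87 ± 0.10 (adjusted p = 4e-05) in the trunk and -0.62 ± 0.10 (adjusted p = 0.00015) in the caudal region. Pappa2, a protease of IGFBP5 and IGFBP3, was lower in Ednrb-/- caudal libraries by -1.09 ± 0.14 (adjusted p = 3.1e-05), with -0.35 in the trunk (adjusted p = 0.082). Pappa, the protease of IGFBP4, was at 1.17 FPKM in Ednrb-/- caudal and 0.869 FPKM in WT caudal libraries. Stc2, an inhibitor of these proteases, was higher in Ednrb-/- caudal libraries by 0.47 ± 0.13 (adjusted p = 0.0075). The other caudal call of a higher gene, Pappa (0.28, adjusted p = 0.046), was lost without Ednrb-/- caudal replicate 2 or 4, without any single WT caudal library, without the 3 mixed libraries and under 8 of the other 12 alternatives. In the trunk the count of lower genes was 2 without Ednrb-/- trunk replicate 3 or the 3 mixed libraries, through Stc1, 2 without WT trunk replicate 1 or with array weights, through Pappa2, and 3 with voom, through both.

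Among 10 receptor and docking genes, 1 was higher and 4 lower in Ednrb-/- trunk libraries, and 2 were higher and 2 lower in Ednrb-/- caudal libraries. These 5 and 4 of 10 stand beside 25.1% and 41.6% of all genes, and are no result about the list as a group. Irs2, a docking protein gene of the insulin and IGF1 receptors, was the higher one in the trunk (0.28 ± 0.06, adjusted p = 0.0031). It was at 7.52 ± 0.664 FPKM in Ednrb-/- trunk and 6.11 ± 0.433 FPKM in WT trunk libraries. Insrr, a receptor related to the insulin receptor, was lower in Ednrb-/- trunk libraries (-0.61 ± 0.12, adjusted p = 0.0016), at 0.265 FPKM in Ednrb-/- and 0.67 FPKM in WT trunk libraries. It passed the filter only through the 4 WT trunk libraries, at 0.561 to 0.806 FPKM, against at most 0.45 FPKM in any other library. Insrr thus entered the test through the group in which it was high, and its call is not independent of the filter. Shc1, an adaptor gene, was lower in Ednrb-/- caudal libraries (-0.25 ± 0.04, adjusted p = 0.00036). The other trunk calls, of Shc1 (-0.13, adjusted p = 0.038), Grb14 (-0.27, adjusted p = 0.047) and the docking gene Gab1 (-0.16, adjusted p = 0.037), lay close to the threshold. Insrr was the only gene lower in the trunk with no filter, without the 3 mixed libraries, and without replicate 1 or 2 of Ednrb-/- trunk or replicate 2 or 4 of WT trunk. The adjusted p of Shc1 was then 0.063 to 0.12 and that of Gab1 0.062 to 0.12. In the caudal region the call of Gab1 (-0.18, adjusted p = 0.011) was lost without the 3 mixed libraries (adjusted p = 0.082), and in TPM 0 were higher and 4 lower. The caudal call of Grb10 (0.11, adjusted p = 0.017) was lost without Ednrb-/- caudal replicate 2, without WT caudal replicate 3, without the 3 mixed libraries, with voom and in TPM, and Grb10 was called lower with quantile normalization. M6pr, the cation-dependent mannose 6-phosphate receptor, was higher in Ednrb-/- caudal libraries (0.19 ± 0.04, adjusted p = 0.002), a call lost in TPM (adjusted p = 0.062).

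Among 18 genes from PI3 kinase to AKT, FOXO and MTOR, 0 were higher and 2 lower in Ednrb-/- trunk libraries, and 2 were higher and 4 lower in Ednrb-/- caudal libraries. These 2 and 6 of 18 stand beside 25.1% and 41.6% of all genes, and are no result about the list as a group. Pik3r1, a regulatory subunit of PI3 kinase, was lower in both (-0.19 ± 0.05, adjusted p = 0.012 in the trunk and -0.29 ± 0.05, adjusted p = 0.00027 in the caudal region). Pik3r3, another regulatory subunit gene, was lower in the caudal region (-0.35 ± 0.06, adjusted p = 0.00014). Its trunk call (-0.16, adjusted p = 0.041) was lost with no filter (adjusted p = 0.078), a replicate block (0.052), a sex term (0.066), without the 3 mixed libraries (0.072) and without any single trunk library of either genotype (0.052 to 0.11) except Ednrb-/- trunk replicate 1. Eif4ebp1, a translation repressor that MTOR inactivates, was at 14.2 ± 1.51 FPKM in Ednrb-/- caudal and 10.3 ± 0.804 FPKM in WT caudal libraries (0.44 ± 0.09, adjusted p = 0.0013). In the trunk its difference was 0.25 (adjusted p = 0.056), which passed the threshold without Ednrb-/- trunk replicate 1 or 3 or WT trunk replicate 1 (adjusted p = 0.031 to 0.039), without the 3 mixed libraries (0.036), and with quantile normalization, array weights or a sex term (0.038 to 0.045). Foxo4, a transcription factor gene, was higher in the caudal region by 0.12 (adjusted p = 0.023), a call lost without Ednrb-/- caudal replicate 4, without WT caudal replicate 1, in TPM, with quantile normalization, with voom and when only the groups compared were fitted. In the caudal region 1 was higher and 10 lower in TPM, and 1 was higher and 9 lower with voom. All 3 genes of the Igf2 mRNA binding proteins, which bind Igf2 and other transcripts, were higher in Ednrb-/- libraries of both regions. Over all genes 12.2% were higher in the trunk and 21.7% in the caudal region. Igf2bp1 was at 31.1 ± 3.41 FPKM in Ednrb-/- trunk and 20.2 ± 0.842 FPKM in WT trunk libraries, and at 35.9 ± 3.13 FPKM in Ednrb-/- caudal and 28.2 ± 2.3 FPKM in WT caudal libraries. Its differences were 0.61 ± 0.08 (adjusted p = 7.8e-05) in the trunk and 0.34 ± 0.08 (adjusted p = 0.002) in the caudal region. Igf2bp2 and Igf2bp3 were higher by 0.38 (adjusted p = 0.00021) and 0.34 (adjusted p = 0.00019) in the trunk. In the caudal region Igf2bp2 was higher by 0.25 (adjusted p = 0.002) and Igf2bp3 by 0.19 (adjusted p = 0.0044), the call of Igf2bp3 being lost in TPM (adjusted p = 0.084).

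**Figure D5:**
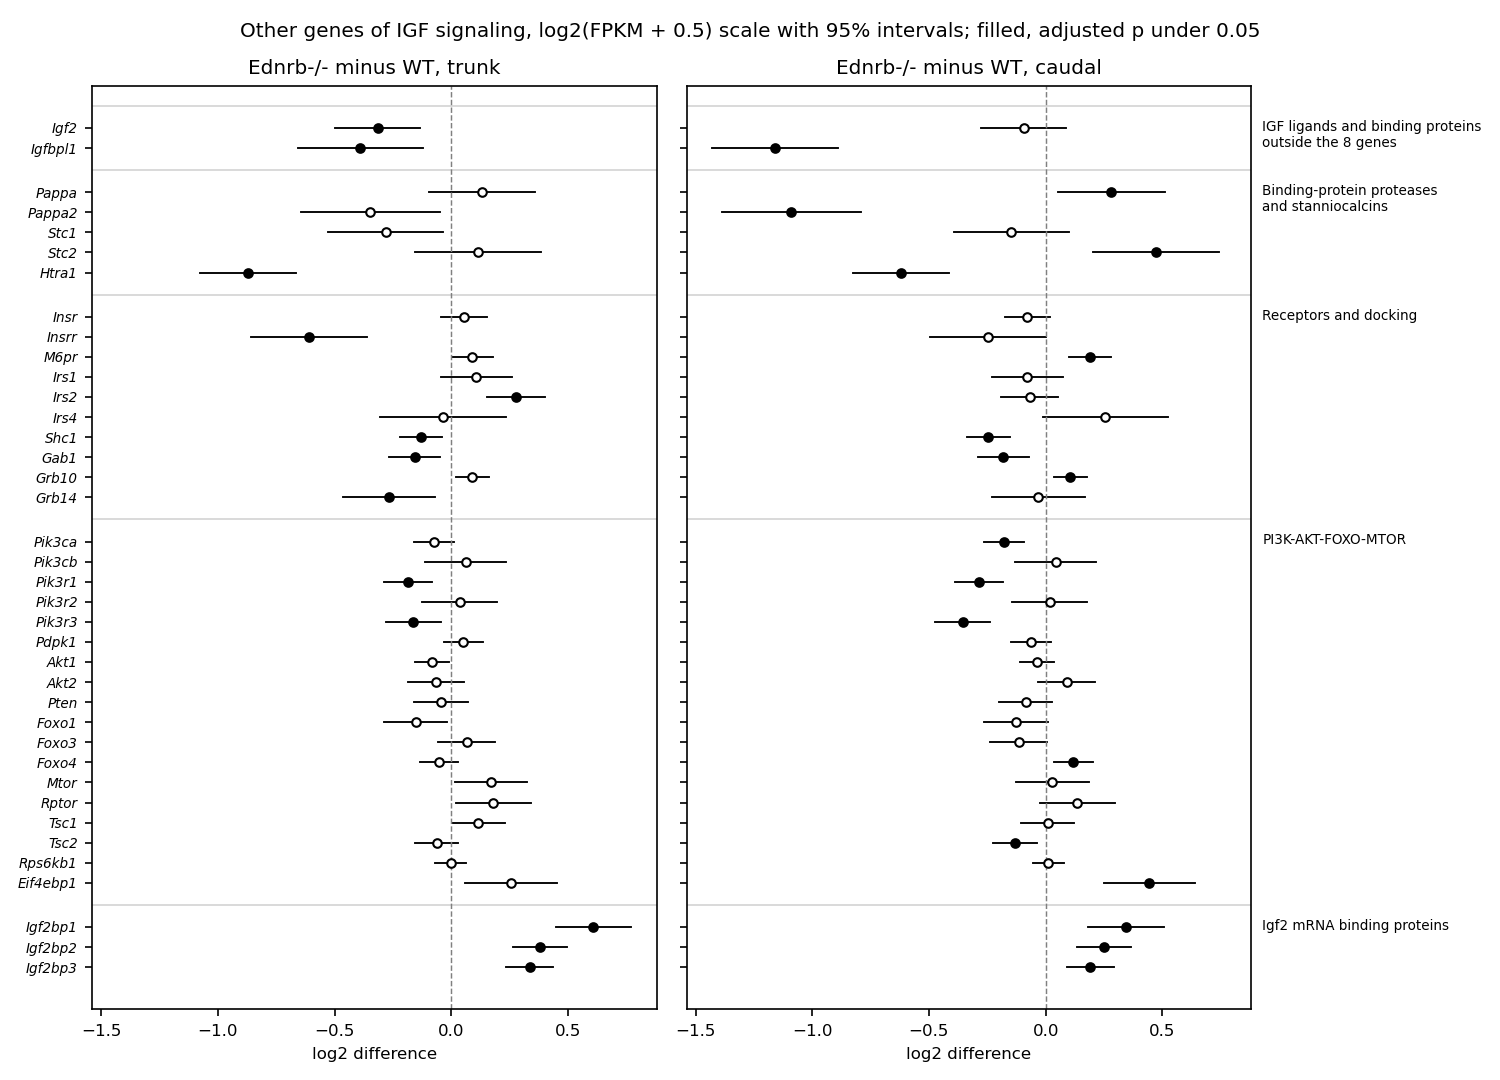
Differences between Ednrb-/- and WT libraries for the 38 tested pathway genes in the trunk and the caudal region, on the log2(FPKM + 0.5) scale with 95% intervals, and filled points called at an adjusted p under 0.05. The Igf2 mRNA binding protein genes lie right of 0 in both panels and Htra1 lies left of 0 in both.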

How the data were processed

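Per the labels' protocols, RNA was taken up in TRIzol and made into libraries by a standard Illumina procedure. The submitters' processing notes name fastp, featureCounts 1.5.0-p3 and HISAT2 2.0.5, with mm39 as the build. Whether counting used strand, and how reads in overlapping genes were treated, were not stated there. The authors deposited FPKM in 1 table with a column per library, per the file headers. The FPKM times gene length gave whole reads for 100% of values within 0.01, and these gave depth and the voom alternative.

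Groups came from the titles. Differences were tested with limma, fitting 4 group means to log2(FPKM + 0.5) in all 16 libraries, eBayes with a trend, and Benjamini-Hochberg adjustment over 17205 genes. Genes under the filter were compared with exact permutation tests. Fold changes on this scale understate changes of low genes. Replicates differed beyond sampling noise (chi-square per degree of freedom of 5.46 to 16.1). Replicate numbers were not used to pair samples in the main fit, and the spread between libraries may in part be technical. Igfbp7 had few reads (166, 168, 152 and 170 in the WT trunk libraries), so its counting error is not small beside that group's spread.

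The named genes were the 8 genes, Ednrb, Igf2, for each pathway list up to 3 genes with the smallest adjusted p in each genotype comparison, and the 3 nearest profiles; the text gives some of these, and Pappa was added after its values were seen. The genes and lists were chosen with earlier results of these data known. A gene of these lists was left out of the lists' counts and is not reported here. Alternatives were quantile, median-of-ratios or TPM scaling, a pseudocount of 0.1 or 1, a filter at 1 FPKM or none, fitting only the groups compared, a replicate block, a sex term, array weights, voom, and leaving out the 3 mixed libraries together or any library by itself. Promoters were matched by symbol for all 8 genes to the supplied RefSeq table. Fits used limma 3.58.1 in R 4.3.3, and plots used matplotlib 3.10.9 in Python 3.11.15.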

Additional observations from a re-analysis of the deposited data

Results flagged for a closer look

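Igfbp7 in Ednrb-/- caudal replicate 2 was at 0.702 FPKM, far below the other 3 libraries of its group, at 1.39 to 1.53 FPKM. This was 1 of 32 gene-by-group sets checked for such a sample, and chance gives about 1 in 20. The caudal genotype difference of Igfbp7 was called with and without that library.

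The genotype effect differed between trunk and caudal region, by limma's interaction test, for 3 of the 38 pathway genes tested outside the 8. Over all genes 6.76% were called, so this count is no result about the pathway as a group. For Igfbpl1 the difference of the effects was 0.77 (adjusted p = 0.021), which missed the threshold with no filter on low genes (adjusted p = 0.053). For Pappa2 it was 0.74 (adjusted p = 0.037), which missed the threshold with no filter (adjusted p = 0.084) and without any of 10 libraries (adjusted p from 0.05 to 0.079). These were Ednrb-/- trunk replicates 1, 3 and 4, WT trunk replicates 1 and 4, Ednrb-/- caudal replicates 2 and 4, and WT caudal replicates 1, 3 and 4. For Irs2 it was 0.35 (adjusted p = 0.023), which missed the threshold without the 3 libraries with Xist and Ddx3y together (adjusted p = 0.062).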

How the results depend on the processing

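Of 904 values of the 8 genes under an alternative, 871 kept their direction and their side of the threshold, 19 changed sign, 6 passed the threshold and 8 no longer did. The count of genes higher in Ednrb-/- caudal libraries was 2, and 1 in TPM and 0 with quantile normalization. The count of genes lower in Ednrb-/- trunk libraries was 1, and 2 when only the groups compared were fitted or with the replicate block, in both cases through Igfbp7 (adjusted p = 0.036 and 0.047), and 1 to 2 with a library left out. The count lower for the difference of the genotype effects was 0, and 1 without the 3 mixed libraries.

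The sign changed for values close to 0. The caudal Igfbp2 difference was -0.0058 in TPM and -0.0574 with quantile normalization, and that of Igf2 was 0.0016 without WT caudal replicate 4, in a range of -0.17 to 0.0016. The trunk Igf1r difference was -0.02 in TPM, -0.034 with voom, -0.037 with array weights, -0.0116 with a sex term, -0.0029 without the 3 mixed libraries and -0.0371 to 0.0428 with a library left out. The Igf1 difference of genotype effects was -9e-04 with a pseudocount of 1, -0.0183 with quantile normalization and -0.0929 to 0.0994 with a library left out. The cause was not tested.

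Same-numbered libraries deviated from their group means with correlations of -0.084 to 0.109. Such low values cannot settle whether same-numbered libraries came from the same embryos. Apart from the trunk Igfbp7 call, the replicate block changed no call among the 8 genes. Igfbp7, with 30 to 170 reads per library, is the gene most limited by depth.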
